A study of Mus musculus with 6 samples.

Results

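The let-7 3p arms are the small RNAs cut from the right-hand side of the let-7 hairpins, opposite the abundant let-7 guide strands. They were taken by name from the deposited miRNA table as every row that begins with mmu-let-7 and ends in 3p, which gave 10 rows of 1926. They run from mmu-let-7a-2-3p, mmu-let-7b-3p and mmu-let-7c-1-3p to mmu-let-7d-3p, mmu-let-7g-3p and mmu-let-7i-3p. The row mmu-let-7a-1-3p/7c-2-3p merges identical arms, so the 10 rows cover the 3p arms of 11 hairpins. The libraries were made from small RNA of extracellular vesicles, membrane particles released by cells, isolated from mouse brain tissue. The tested libraries are SE-BDEV 1 to 3, from mice with a past status epilepticus (a prolonged seizure), and the libraries they are set against are CON-BDEV 1 to 3, from matched controls. All titles carry day 10. No label gives strain, age, the way seizures were induced or the event from which days are counted. Nor does any label tie each library to an animal of its own, so the spread behind every p-value may be technical.

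A miRNA hairpin is cut by Drosha and then Dicer into a duplex of a 5p and a 3p strand. Argonaute keeps one of them as the guide, which finds targets through its seed, and the other, the passenger, is usually degraded. In let-7 hairpins the guide is the 5p strand, whose seed is the same in all the hairpins covered here, and let-7 guides accumulate as neurons mature. The precursors of let-7 are held back in immature cells by LIN28, which binds the loop of the hairpin between both arms.

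The 3p arms are shown first because, unlike the guides, they do not share a seed. Sequences are the RefSeq mature sequences (GRCm38.p6 table), written 5′ to 3′, and capitals mark the seed, bases 2 to 8. All 11 mature 3p sequences of the 10 rows were found there.

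let-7a-1-3p: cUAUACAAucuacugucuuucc
let-7c-2-3p: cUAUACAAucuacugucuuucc
let-7b-3p: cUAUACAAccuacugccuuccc
let-7f-1-3p: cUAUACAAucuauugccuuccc
let-7f-2-3p: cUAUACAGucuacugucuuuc
let-7d-3p: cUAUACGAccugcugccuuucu
let-7e-3p: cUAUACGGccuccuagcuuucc
let-7a-2-3p: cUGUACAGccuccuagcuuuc
let-7c-1-3p: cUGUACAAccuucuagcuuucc
let-7i-3p: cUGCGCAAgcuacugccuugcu
let-7g-3p: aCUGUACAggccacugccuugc

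The 11 sequences hold 8 different seeds. let-7a-1-3p, let-7c-2-3p, let-7b-3p and let-7f-1-3p share one, and each of the other sequences has its own. let-7a-1-3p and let-7c-2-3p are identical over 22 bases, which is why a read cannot tell them apart, and the authors' table lists them as 1 row. Counted from 1 at the 5′ end, let-7f-2-3p differs from let-7a-1-3p by A8G alone over the 21 bases they share. let-7f-1-3p differs from let-7b-3p by 2 substitutions, C9U and C13U in the order let-7b-3p to let-7f-1-3p. The sources used here do not give how reads that match such near-identical members were assigned, so the division of reads among them is uncertain. let-7d-3p, the most abundant member, differs from let-7b-3p at 4 bases (G7A, G12A, U20C and U22C, let-7d-3p first). RefSeq starts 10 of the 11 sequences with C. let-7g-3p starts with A, which moves its seed by 1 base. Its bases 3 to 9, UGUACAG, are the seed of let-7a-2-3p. GC content ran from 36.4% in let-7a-1-3p to 59.1% in let-7g-3p and let-7i-3p.

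The guides differ far less, and let-7a-5p and let-7d-5p are shown because let-7d is the hairpin with the largest 3p share in these data.

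let-7a-5p: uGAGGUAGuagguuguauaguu
let-7d-5p: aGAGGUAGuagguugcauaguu

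Both carry the family seed, and let-7d-5p differs from let-7a-5p by U1A and U16C.

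The hairpins are spread over 7 chromosomes and several share a transcript, as described here with RefSeq coordinates on GRCm38.p6 and GENCODE M21 genes on GRCm38. The submitters' processing notes name mm9, and the deposited files hold no coordinates. The let-7d, let-7f-1 and let-7a-1 hairpins lie in a row on the minus strand of chromosome 13, with gaps of 1714 and 261 bases between them. All 3 overlap an exon of the lincRNA 6720427I07Rik. The mature let-7d-3p is at chr13:48536024-48536045, let-7f-1-3p at chr13:48537833-48537854 and let-7a-1-3p at chr13:48538188-48538209. The let-7c-2 and let-7b hairpins lie 621 bases apart on chromosome 15 and overlap an exon of Lncppara, with let-7c-2-3p at chr15:85706664-85706685 and let-7b-3p at chr15:85707379-85707400, both on the plus strand. let-7c-1 lies in an intron of Mir99ahg, the host transcript of miR-99a (let-7c-1-3p at chr16:77599717-77599738, plus strand). let-7e lies in an intron of Spaca6 (let-7e-3p at chr17:17830411-17830432, plus strand), let-7g in an intron of Wdr82 (let-7g-3p at chr9:106178902-106178923, plus strand) and let-7f-2 in an intron of Huwe1 (let-7f-2-3p at chrX:151912403-151912423, plus strand). let-7a-2 lies in introns of the noncoding transcripts 3110039I08Rik and Gm49317 (let-7a-2-3p at chr9:41536777-41536797, plus strand), and let-7i overlaps an exon of the transcribed pseudogene D630033A02Rik (let-7i-3p at chr10:122985642-122985663, minus strand).

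Values are RPM, reads scaled to the same miRNA total in every library, as the authors deposited them. In each library all values were whole multiples of a single step, taken as 1 read (within 0.001 step), which puts the libraries at 4996073 to 9391887 reads in SE-BDEV and 4400167 to 8147118 in CON-BDEV. The smallest value listed was 2 reads, so a 0 can stand for a single read. With at most 1 read behind it, a listed 0 allows up to 4.74 reads at 95% confidence, which was 0.505 to 0.9495 RPM in SE-BDEV and 0.582 to 1.08 RPM in CON-BDEV, and this limit covers counting error only. The 8 let-7 5p rows, for comparison, held 78.5% ± 2.74 of RPM in SE-BDEV and 80.2% ± 1.29 in CON-BDEV (SD, n = 3 each). The brain markers miR-124-3p, miR-9-5p and miR-128-3p summed to 15669 to 28117 RPM in SE-BDEV and 17155 to 20919 RPM in CON-BDEV. Of the red blood cell markers, miR-451a and miR-144-3p were at 0 in every library, while the merged miR-486a-5p row stood at 102 to 111 RPM in SE-BDEV and 83.6 to 199 RPM in CON-BDEV. The 4 immune cell markers summed to 280 to 404 RPM in SE-BDEV and 59.8 to 73.0 RPM in CON-BDEV. The liver marker miR-122-5p was at 88.7 to 132 RPM in SE-BDEV and 75.0 to 79.7 RPM in CON-BDEV, and the muscle markers miR-1a-3p and merged miR-133a-3p summed to 121 to 207 RPM in SE-BDEV and 54.3 to 116 RPM in CON-BDEV. Of the oligodendrocyte markers, miR-338-3p was at 160 to 275 RPM in SE-BDEV and 110 to 144 RPM in CON-BDEV, while miR-219a-5p was at 0 in every library. Summed by type, the immune, liver, muscle and oligodendrocyte markers were thus higher in all SE-BDEV libraries than in any CON-BDEV library. Over the 803 miRNAs above 0 in any library, 10.5% had groups that did not overlap in 1 direction or the other. The liver and oligodendrocyte values rest on 1 miRNA each. Of all these markers only the immune miR-155-5p and miR-142a-5p were called (limma adjusted p = 0.000284 and 0.00761). The part of the markers in the results below was not tested.

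The let-7 3p arms were rare in these vesicles. Of the 10 rows, 8 were above 0 in at least 1 library and 5 in all 6 libraries. By mean level over the 6 libraries let-7d-3p came first at 59.8 RPM, followed by let-7b-3p at 11.7, let-7e-3p at 6.89, let-7c-1-3p at 2.26, the merged row at 2.22, let-7i-3p at 1.92, let-7g-3p at 0.695 and let-7a-2-3p at 0.502 RPM. let-7d-3p was above let-7b-3p in every library, and below it each pair of neighbours in this order overlapped. All 3p rows together came to 59.6, 69.5 and 60.7 RPM in SE-BDEV 1, 2 and 3, and to 130, 60.5 and 136 RPM in CON-BDEV 1, 2 and 3. CON-BDEV 1 and 3 were high, while CON-BDEV 2 lay within the range of the SE-BDEV libraries. The mean was 63.3 ± 5.38 RPM in SE-BDEV and 108.7 ± 41.9 RPM in CON-BDEV (SD, n = 3 each, two-sided exact permutation p = 0.3, where the smallest p that 3 against 3 allows is 0.1). let-7d-3p made up 61.6% ± 17.9 of this sum in SE-BDEV and 71.8% ± 15.8 in CON-BDEV (SD, n = 3 each). Without let-7d-3p the sum was 24.5 ± 11.9 RPM in SE-BDEV and 27.9 ± 16.1 RPM in CON-BDEV (SD, n = 3 each, exact permutation p = 0.9). This remainder was lowest in SE-BDEV 3 (10.8 RPM) and CON-BDEV 1 (13.6 RPM), the libraries where let-7b-3p was listed at 0.

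let-7d-3p, from the hairpin that shares its transcript with let-7f-1 and let-7a-1, stood at 29.3, 37.2 and 49.9 RPM in SE-BDEV 1, 2 and 3, against 116, 35.8 and 90.8 RPM in CON-BDEV 1, 2 and 3. These are 186 to 337 reads in SE-BDEV and 292 to 597 reads in CON-BDEV. All 3 SE-BDEV values lay below CON-BDEV 1 and 3, and CON-BDEV 2 lay below SE-BDEV 2 and 3, so the groups overlapped. In bulk vesicle RNA, fewer vesicles that carry a miRNA and less of it per vesicle cannot be told apart. The mean was 38.8 ± 10.4 RPM in SE-BDEV and 80.8 ± 40.9 RPM in CON-BDEV (SD, n = 3 each). The log2 difference was -0.91 ± 0.42 (SE) on the log2(RPM + 1) scale, and it did not pass (limma, unadjusted p = 0.0475, adjusted p = 0.438 over the 308 miRNAs that averaged at least 10 RPM). The result depended on CON-BDEV 2: without that library the log2 difference was -1.41 and passed (limma adjusted p = 0.0282), and without CON-BDEV 1 it was -0.58 (adjusted p = 0.857).

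let-7b-3p, whose guide let-7b-5p was second to let-7c-5p among the let-7 rows, was listed either at 0 or above 14 RPM. It stood at 15.9 and 17.8 RPM in SE-BDEV 1 and 2 and was listed at 0 in SE-BDEV 3, against a listed 0 in CON-BDEV 1 and 14.4 and 22.04 RPM in CON-BDEV 2 and 3. The 4 libraries with a value held 89 to 149 reads. Each group thus has 1 library at 0 and 2 libraries in the same range. The log2 difference of -0.0526 ± 1.43 (SE, limma adjusted p = 0.986) carries the spread of those zeros, and its sign changed without SE-BDEV 3 (1.33), CON-BDEV 2 (0.51) or CON-BDEV 3 (0.80). Among the 308 tested miRNAs, let-7b-3p is one of 7 that were listed at 0 in at least 1 library. Its guide had no such gap, at 131903 to 155989 RPM in SE-BDEV and 156350 to 187681 RPM in CON-BDEV.

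Of the 308 tested miRNAs 3 were called at an adjusted p under 0.05 (0.974%), and neither of the 2 let-7 3p rows that reached 10 RPM was among them. With the replicate number as a block 10 were called, or 4 over the 301 miRNAs that were also above 0 in all libraries, and without CON-BDEV 2 the count was 8. With no filter, 8 rows could be tested among 803 miRNAs, of which 3 were called (0.374%), again none of them a let-7 3p arm. In that fit 45 miRNAs had an unadjusted p under 0.05, and let-7d-3p was at an unadjusted p of 0.0574. In the authors' deposited table, from DESeq2, 7 of the 8 rows listed there have an adjusted p. None of the 7 is under 0.05, where 1.12% of all miRNAs with an adjusted p are. The authors' deposited table gives let-7d-3p a log2 fold change of -1.08 with a standard error of 0.45 (unadjusted p = 0.0152, adjusted p = 0.327).

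**Figure D1:**
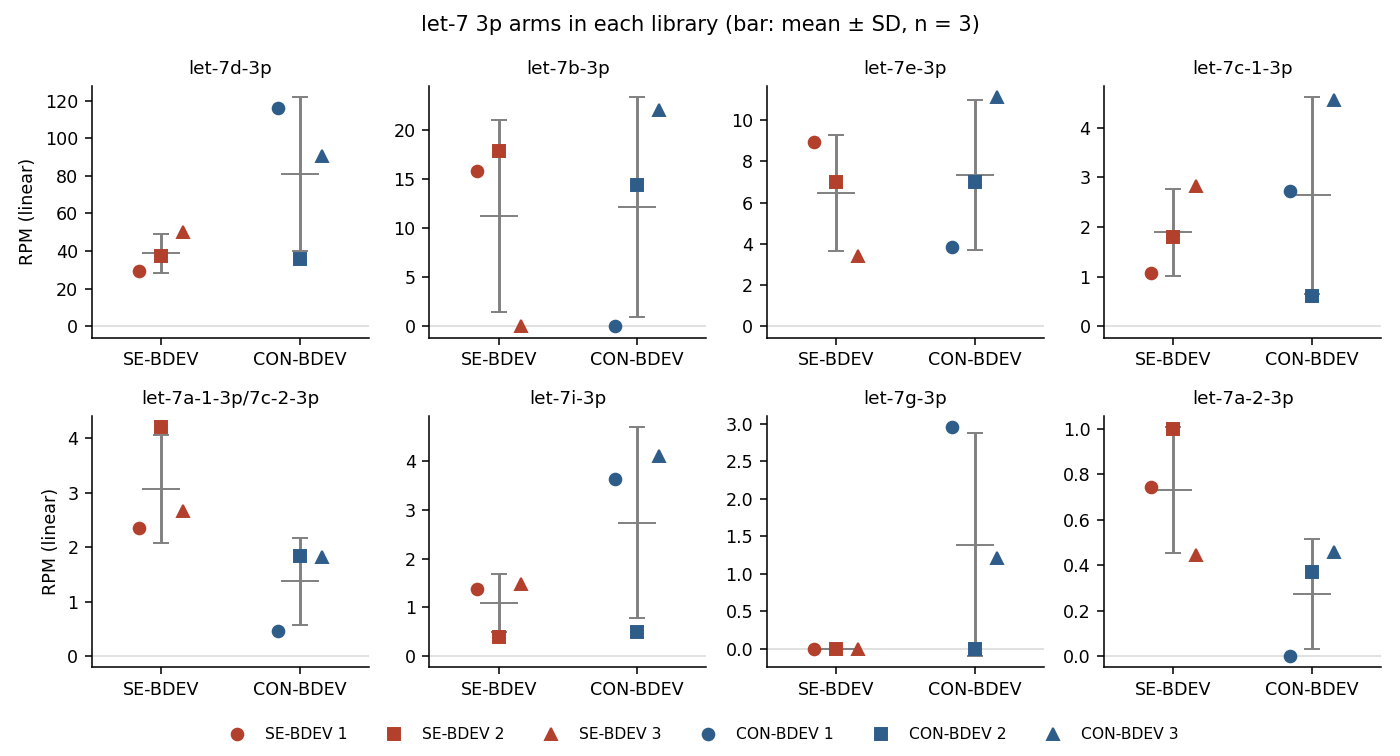
RPM (linear axes, a scale of its own in each panel) of the 8 let-7 3p rows above 0, with SE-BDEV left and CON-BDEV right in each panel, 1 point per library with the same symbol for the same replicate number, and grey bars for the mean ± SD (n = 3). CON-BDEV 1 and 3 stand above all SE-BDEV libraries for let-7d-3p, let-7i-3p and let-7g-3p, and let-7b-3p is at 0 in SE-BDEV 3 and CON-BDEV 1.

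let-7e-3p, of the Spaca6 hairpin, was the third most abundant row. It stood at 8.94, 7.01 and 3.41 RPM in SE-BDEV 1, 2 and 3, against 3.86, 6.996 and 11.1 RPM in CON-BDEV 1, 2 and 3. The groups covered nearly the same range, and the log2 difference was -0.14 ± 0.47 (SE, limma with no filter, adjusted p = 0.945).

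The members with an average under 3 RPM rest on few reads. The merged let-7a-1-3p/7c-2-3p row is the one member whose groups did not overlap. It stood at 2.34, 4.20 and 2.67 RPM in SE-BDEV 1, 2 and 3 (22, 21 and 18 reads), against 0.455, 1.84 and 1.82 RPM in CON-BDEV 1, 2 and 3 (2, 15 and 12 reads). Over the 803 miRNAs above 0 in any library, 10.5% had groups that did not overlap, so 1 of 8 rows is near that background. The log2 difference was 0.82 ± 0.56 (SE, limma with no filter, adjusted p = 0.753). let-7a-2-3p, which shares the guide let-7a-5p, was at 0.745, 1.00 and 0.444 RPM in SE-BDEV 1, 2 and 3 and at 0, 0.368 and 0.456 RPM in CON-BDEV 1, 2 and 3. With 3 to 7 reads where it was seen, it lay close to the limit that a listed 0 allows, and a difference was not detectable at this depth (limma with no filter, adjusted p = 0.786).

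let-7c-1-3p, of the Mir99ahg hairpin, stood at 1.06, 1.80 and 2.81 RPM in SE-BDEV 1, 2 and 3, against 2.73, 0.614 and 4.56 RPM in CON-BDEV 1, 2 and 3. let-7i-3p stood at 1.38, 0.400 and 1.48 RPM in SE-BDEV 1, 2 and 3, against 3.64, 0.491 and 4.10 RPM in CON-BDEV 1, 2 and 3. let-7g-3p had no listed value in SE-BDEV 1, 2 and 3 or in CON-BDEV 2 (all at 0), and at 2.95 and 1.22 RPM (13 and 8 reads) in CON-BDEV 1 and 3. For these 3 rows and let-7d-3p alike, a set picked after the values were seen, CON-BDEV 2 was the lowest control library. The log2 differences were -0.20 ± 0.62 for let-7c-1-3p, -0.70 ± 0.67 for let-7i-3p and -1.04 ± 0.59 for let-7g-3p (SE, limma with no filter, adjusted p = 0.942, 0.753 and 0.753). Since let-7g-3p is at 0 in one group, its fitted value depends on the pseudocount.

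let-7f-1-3p and let-7f-2-3p were listed at 0 in all 6 libraries, which allows up to 0.505 to 0.9495 RPM in SE-BDEV and 0.582 to 1.08 RPM in CON-BDEV. Their shared guide let-7f-5p stood at 68761 ± 8963 RPM in SE-BDEV and 56142 ± 7165 RPM in CON-BDEV (SD, n = 3 each). Along the chromosome 13 transcript, let-7d-3p had a mean of 59.8 RPM over the 6 libraries, and its neighbour let-7f-1-3p a listed 0. How reads were divided between let-7f-1-3p and the near-identical let-7b-3p is not known, so this 0 is uncertain. The merged row that holds let-7a-1-3p was at 2.22 RPM. The 5p arms of the same hairpins were much closer, at means of 42794 RPM for let-7d-5p, 62451 RPM for let-7f-5p and 96441 RPM for let-7a-5p. let-7a-5p and let-7f-5p are also made by hairpins on other chromosomes, so their share from this transcript is not known.

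The ratio of a 3p arm to its 5p arm compares both strands of a hairpin within a library and does not depend on the library's total. It is given as 3p RPM per 100000 RPM of 5p. The merged row was set against the sum of let-7a-5p and let-7c-5p, and let-7e-3p against the row that merges let-7e-5p with let-7k. let-7d had the highest ratio, at 140 per 100000 over the 6 libraries, or 715 guide reads for each 3p read. let-7e-3p followed at 16.99, let-7b-3p at 7.47 and let-7i-3p at 7.05 per 100000. let-7g-3p was at 1.67, let-7c-1-3p at 0.695, the merged row at 0.526 and let-7a-2-3p at 0.521 per 100000. For let-7a-2-3p that is 191931 let-7a-5p reads for each 3p read, though let-7a-5p also comes from the let-7a-1 hairpin. Below let-7d the order is loose, since the ratios of all neighbours in it overlapped between libraries.

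**Figure D2:**
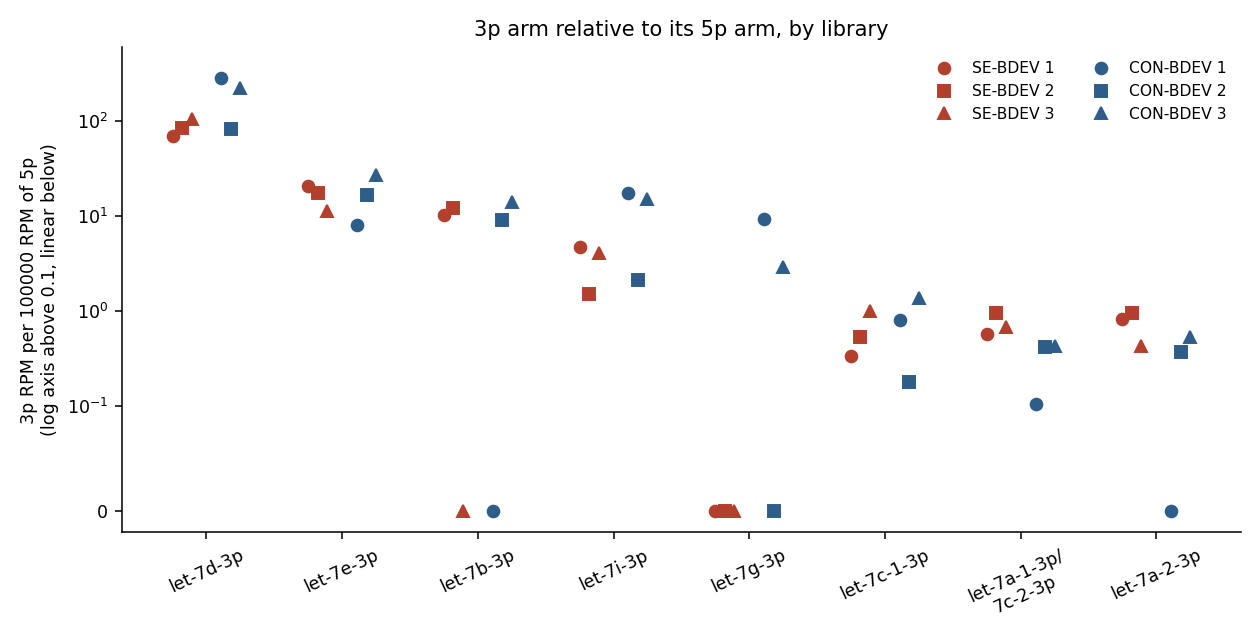
3p RPM per 100000 RPM of the matching 5p arm (log axis above 0.1, linear below) for the 8 let-7 rows above 0, in the order of their mean ratio, with the 3 SE-BDEV libraries left of the 3 CON-BDEV libraries for each row. let-7d-3p lies between 69.4 and 289 in all libraries, above every value of every other row.

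let-7 hairpins were strongly one-sided. The smaller arm was compared in 233 pairs with 10 RPM or more for both arms together, 10 of them let-7. Where copies of a hairpin share an arm, as let-7a-1 and let-7a-2 share let-7a-5p, each copy was paired with the whole shared row, inside the family and outside it. That holds for 36 of the 223 other pairs, and the 33 rows outside the family that merge several names were not paired. In let-7 pairs the smaller arm made up 0 to 0.140% of both arms, with a median of 0.00118%, and the 5p arm was the larger in all 10. The merged row, let-7a-2-3p, let-7c-1-3p and both let-7f rows were set against shared 5p rows, which lowers their share. They had the smallest shares of the family, from 0 to 0.000695%. The remaining let-7 pairs ran from 0.00167% for let-7g-3p to 0.140% for let-7d-3p. In the 223 other pairs the median was 1.09%, the 3p arm was the larger in 92, and the smaller arm was listed at 0 in 52. The median was 0.261% in the 36 pairs of such copies and 1.35% in the other 187. Of the 171 other pairs with both arms above 0, 20 lay below let-7d. In the 43 other pairs with 1000 RPM or more the median was 0.311%, and 15 of the 43 lay below let-7d. The other pairs reach at most 18335 RPM for both arms, below every let-7 pair, and at lower totals small shares fall under the limit of detection and are listed at 0. The shares are given as a description, with no test.

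**Figure D3:**
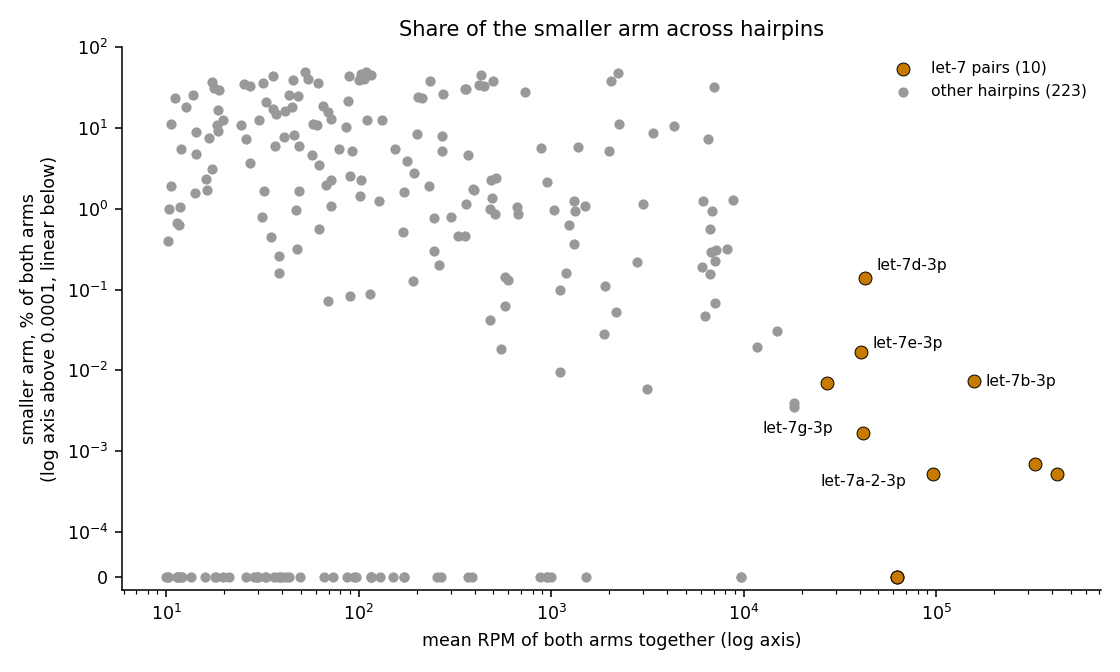
Share of the smaller arm in percent of both arms (log axis above 0.0001, linear below) against the mean RPM of both arms over the 6 libraries (log axis) for 10 let-7 pairs and 223 pairs of other hairpins. let-7 pairs sit at the right-hand end with shares of 0 to 0.140%, and both let-7f points, drawn on top of each other, are at 0.

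The ratios were then compared between SE-BDEV and CON-BDEV. let-7d-3p stood at 69.4, 85.1 and 105 per 100000 let-7d-5p in SE-BDEV 1, 2 and 3, against 289, 83.4 and 225 in CON-BDEV 1, 2 and 3. As with its level, CON-BDEV 1 and 3 were above all SE-BDEV libraries and CON-BDEV 2 was among them. The mean was 86.6 ± 18.1 in SE-BDEV and 199 ± 105 in CON-BDEV (SD, n = 3 each). The log2 ratio differed by -1.03 ± 0.43 (SE) and did not pass over 116 hairpins, outside let-7 those whose arms carry the same name (limma, unadjusted p = 0.0181, adjusted p = 0.531). The guide itself, let-7d-5p, was at 44441 ± 2645 RPM in SE-BDEV and 41148 ± 1586 RPM in CON-BDEV (SD, n = 3 each, log2 difference 0.11, limma adjusted p = 0.769).

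No hairpin of the 116 passed in the arm ratio (0%), while 8 had an unadjusted p under 0.05, let-7d-3p among them. With the replicate number as a block, and also without CON-BDEV 3, 1 hairpin passed, miR-872, named after its values were seen. The 6 let-7 pairs tested had log2 ratio differences from -1.08 ± 0.67 for let-7i-3p to 0.89 ± 0.61 for the merged row (SE, limma adjusted p of 0.531 to 0.959). With a pseudocount of 10 RPM these ends were -0.57 for let-7i-3p and 0.27 for the merged row. let-7i-3p was at 4.68, 1.51 and 4.09 per 100000 let-7i-5p in SE-BDEV 1, 2 and 3, against 17.5, 2.13 and 15.3 in CON-BDEV 1, 2 and 3, the same order of control libraries as for let-7d. In the fit with no filter let-7i-3p had a log2 difference of -0.70 and its guide let-7i-5p one of 0.38. Both arms thus enter its ratio difference. The merged row was at 0.578, 0.950 and 0.685 in SE-BDEV 1, 2 and 3, against 0.104, 0.419 and 0.432 in CON-BDEV 1, 2 and 3. The CON-BDEV 1 value rests on 2 reads of the 3p row. This ratio rests on the same 3p reads as the level of the merged row and is not a separate observation. Over all rows together, the 3p arms came to 8.06 ± 0.433 per 100000 of the let-7 5p rows in SE-BDEV and 13.6 ± 5.31 in CON-BDEV (SD, n = 3 each, exact permutation p = 0.4, smallest possible 0.1). The difference of -5.52 was -8.56 without CON-BDEV 2, -3.67 without CON-BDEV 3 and -0.413 without let-7d-3p.

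**Figure D4:**
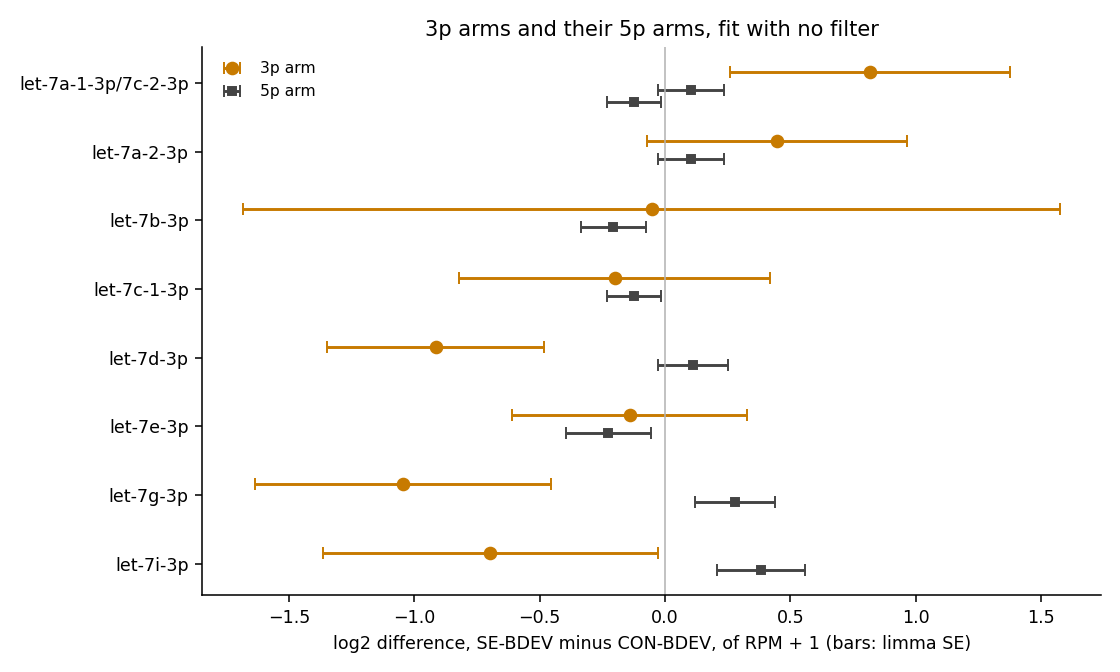
log2 difference, SE-BDEV minus CON-BDEV, of RPM + 1 (horizontal axis, bars are limma standard errors, fit with no filter) for 8 let-7 3p rows (circles) and their 5p arms (squares). The 3p values run from -1.04 to 0.82 with wide bars, and the 5p values stay between -0.23 and 0.38.

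The guides give the family's own background. Of the 10 rows of let-7 5p arms and both miR-98 arms, 9 were tested and none passed. Of these, 6 had higher and 3 lower means on the log scale, with a median log2 difference of 0.11, against 0.0606 over all 308 tested miRNAs. The guide with the smallest p was let-7i-5p, at 30780 ± 4949 RPM in SE-BDEV and 23548 ± 3049 RPM in CON-BDEV (SD, n = 3 each, log2 difference 0.38 ± 0.16 SE, limma adjusted p = 0.438). miR-98-3p, the passenger of the let-7-like hairpin miR-98, averaged 0.184 RPM over the 6 libraries, below each let-7 3p row above 0, at 0.801 RPM in SE-BDEV 2 and 0.304 RPM in CON-BDEV 3 and listed at 0 in the other 4 libraries. Of the cluster partners miR-100, miR-99a, miR-125a and miR-125b, which share transcripts with some let-7 hairpins, 8 of 9 rows were tested and none passed, with a median log2 difference of -0.0151. The partners listed did not include miR-99b, so the median does not cover it. Among 12 arms of other brain hairpins listed as passengers 7 were tested, 4 with higher and 3 with lower values, none past the threshold, and the median was 0.00577. The tested arms made up from 0.228% (miR-128-1-5p) to 47.9% (miR-30a-3p) of both arms. All were thus above the shares of the let-7 3p arms, and the list is not a like comparison for them. In this list miR-9-3p, at 31.9% of both arms, had a log2 difference of 0.67 and miR-128-1-5p one of -0.69, both at a limma adjusted p of 0.438.

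The miRNAs outside the family whose pattern over the 6 libraries was most like that of let-7d-3p were miR-1224-5p, miR-328-3p and miR-667-3p. Likeness was measured as the mean absolute difference of log2(RPM + 1), each miRNA centred on its own mean, and was 0.0732 for miR-1224-5p, 0.16 for miR-328-3p and 0.20 for miR-667-3p. miR-1224-5p stood at 35.3, 49.6 and 61.2 RPM in SE-BDEV 1, 2 and 3, against 154, 44.2 and 98.5 RPM in CON-BDEV 1, 2 and 3. CON-BDEV 1 and 3 were highest for all 3 miRNAs, as for let-7d-3p, which follows from how these 3 miRNAs were picked. None of them passed (log2 differences of -0.87, -0.96 and -1.003, limma adjusted p of 0.405 to 0.438).

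**Figure D5:**
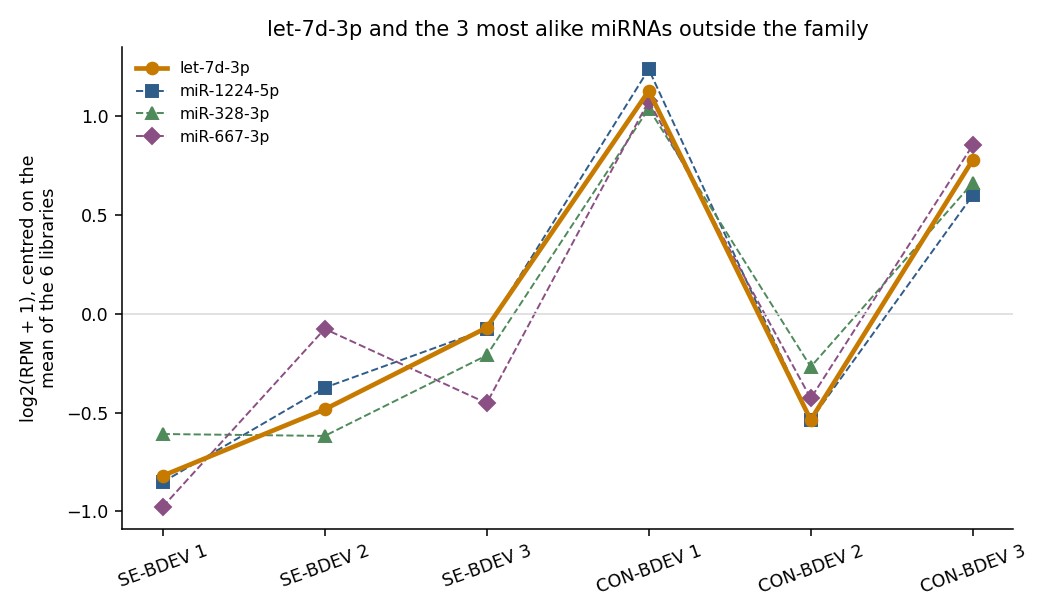
log2(RPM + 1) centred on the mean of the 6 libraries (vertical axis) for let-7d-3p (solid) and the 3 most alike miRNAs outside the family (dashed), by library. All 4 are highest in CON-BDEV 1 and CON-BDEV 3, and CON-BDEV 2 lies with the SE-BDEV libraries. The 3 dashed miRNAs were picked for this likeness.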

How the data were processed

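The authors deposited RPM values for 1926 miRNA rows in 6 libraries, and a table of their own comparison with a mean normalized signal, log2 fold changes, a test score (the Wald statistic) and p-values with adjusted p-values, per the file headers. Per the labels' protocols, libraries came from a QIAseq miRNA kit and DNase-treated miRNeasy RNA. DESeq2 and the build mm9 are named without versions in the submitters' processing notes. Not given in the sources used here are the aligner, the counter and any use of molecular identifiers.

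limma 3.58.1 in R 4.3.3 (statmod 1.5.0) was fitted to log2(RPM + 1) of the 308 miRNAs that averaged at least 10 RPM, two-sided, with trended, robust empirical Bayes variances. P-values were Benjamini-Hochberg adjusted and called under 0.05. Arm ratios were fitted the same way as log2((3p + 1)/(5p + 1)) for 116 hairpins (outside let-7, arms of the same name) with 10 RPM for both arms and 1 RPM for each, with the smaller arm's mean level as trend. Fold changes on these scales understate the change of low miRNAs. Fits were tested on simulated data. Single values per library were compared with exact permutation tests. Figures used matplotlib 3.10.9.

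All 10 rows are named by rule, with their 5p arms, 2 further lists and the 3 most alike miRNAs. Members and lists were chosen with earlier results of these data known. Because single reads are not listed, the values were not taken as counts and no count model was fitted.

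The groups share replicate numbers. Deviations from group means correlated at 0.216, 0.202 and 0.462 for numbers 1, 2 and 3 over 308 miRNAs, all above the bound of 0.1 for treating them as pairs, but at -0.0639, -0.0614 and -0.0806 without miR-24-3p. The labels do not state a pairing. Blocked values are given where they change a call or a count.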

Additional observations from a re-analysis of the deposited data

How the results depend on the processing

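let-7d-3p kept a negative log2 difference under all 15 alternatives, from -1.41 to -0.58, with adjusted p from 0.0282 to 0.857. It passed in 1, without CON-BDEV 2. With the replicate number as a block it was at an adjusted p of 0.0961, and the block changed no call of a let-7 3p arm or arm ratio. The count of called miRNAs was 10 with the replicate block, 7 in the authors' deposited table and 2 to 8 with 1 library left out, against 3. Over miRNAs above 0 in all libraries, an alternative chosen after seeing the data, 4 were called with or without the block, and let-7d-3p had an adjusted p of 0.397, or 0.102 with the block. The count of arm pairs was 1 with the block and 0 to 1 with 1 library left out (1 without CON-BDEV 3), against 0. Leaving out 1 library gave log2 differences of -1.46 to 1.33 for let-7b-3p, and log2 ratio differences of -1.34 to 1.47 for let-7b-3p, -0.58 to 0.32 for let-7c-1-3p, -0.32 to 0.45 for let-7e-3p, -1.55 (without CON-BDEV 2) to -0.67 (without CON-BDEV 1) for let-7d-3p, -1.64 (without CON-BDEV 2) to -0.74 for let-7i-3p and 0.56 (without CON-BDEV 1) to 1.06 for the merged row. The sign of the ratio difference changed for let-7b-3p without SE-BDEV 1 (-0.45), SE-BDEV 2 (-0.57) or CON-BDEV 1 (-1.34), for let-7c-1-3p without SE-BDEV 1 (0.15), CON-BDEV 1 (0.0240) or CON-BDEV 3 (0.32), and for let-7e-3p without SE-BDEV 1 (-0.0603) or CON-BDEV 1 (-0.32). With a pseudocount of 10 RPM the ratio difference was 0.0453 for let-7c-1-3p, 0.27 for the merged row and -0.57 for let-7i-3p. Adding hairpins with a copy number in 1 arm, also chosen after seeing the data, left 0 of 138 arm pairs called by limma (11 at an unadjusted p under 0.05). The summed RPM differed by -69.5 (without CON-BDEV 2) to -31.8 (without CON-BDEV 3) with 1 library left out and by -3.41 without let-7d-3p, against -45.4. The ratio of the sums differed by -8.56 (without CON-BDEV 2) to -3.67 (without CON-BDEV 3) and by -0.413 without let-7d-3p, against -5.52. Median-of-ratios scaling moved the median of all tested miRNAs by -0.0683 on the log2 scale. Where no construction shows it, the cause was not tested. The planned edgeR and DESeq2 fits were not run, because the values were not taken as counts. Depth limits every row under 3 RPM.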
